A study of Mus musculus with 14 samples.

Results

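The 9 genes described here encode the receptor chains through which T cells sense IL-12, IL-18, IL-33, IL-25 and IL-1. They are Il12rb1 and Il12rb2, Il18r1 and Il18rap, Il1rl1, which encodes the IL-33 receptor chain ST2, Il1rap, Il1r1 and Il1r2, and Il17rb. They were taken by name, through their Ensembl identifiers, from 22598 genes counted in each of 14 RNA sequencing libraries of mouse Th2 cells. Of the 9 genes, 8 held enough reads to be tested among 11591 genes. Il1r1 did not.

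IL-12 binds a receptor of 2 chains, IL-12Rβ1 and IL-12Rβ2, and signals through STAT4, and loss of the β2 chain is a known mark of cells that have turned to the Th2 type. The receptors for IL-18, IL-33 and IL-1 belong to 1 family: a ligand-binding chain (IL-18Rα from Il18r1, ST2 from Il1rl1, IL-1R1 from Il1r1) pairs with an accessory chain (IL-18Rβ from Il18rap, or IL-1RAcP from Il1rap, which serves both ST2 and IL-1R1), and the pair recruits MyD88. Il1r2 encodes a decoy that binds IL-1 and cannot signal. IL-25 is bound by IL-17RB (Il17rb) together with IL-17RA (Il17ra). ST2 and IL-17RB are known from Th2 cells and group 2 innate lymphoid cells, where IL-33 and IL-25 raise type 2 cytokines, while IL-12 and IL-18 are known for driving interferon γ in Th1 cells.

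Naive CD4+ T cells from the spleens of C57BL/6J mice, labelled as sorted CD4+ TCRb+, were activated and polarized to Th2 in culture. The groups were knockout (KO) for the 3 Argonaute genes Ago1, Ago3 and Ago4 at day 14 (n = 3), wild type (WT) at day 14 (n = 3), KO at day 7 (n = 4) and WT at day 7 (n = 4). The series text calls the WT mice littermates and gives the later time in a second way, as day 15. The sources used here give neither the kind of knockout allele nor the age or sex of the mice. They also do not say whether each library came from its own mouse. Libraries held 23326248 to 35803197 counted reads. Ago1 had 0 reads in 6 of 7 KO libraries and 2 reads in KO day 14 library 3, against 2.07 to 5.35 CPM in WT libraries. CPM is a read count scaled to a common library size, here on TMM-scaled totals unless stated. Reads per gene cannot show a deletion of single exons: Ago3 stood at 1.21 to 2.16 CPM in KO and 2.04 to 4.43 CPM in WT libraries, and Ago4 at 2.38 to 4.76 CPM in KO and 0.358 to 2.81 CPM in WT libraries.

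The markers of CD4 T cells summed to 7472 to 11752 CPM in KO and 6034 to 7634 CPM in WT libraries, with none of the 8 at 0. Gata3, the Th2 master regulator, ranged from 437 to 600 CPM in KO and 411 to 603 CPM in WT libraries. WT day 14 library 3 stood apart from the other libraries of its group: the chi-square of its counts per degree of freedom was 425 and 499 against the other WT day 14 libraries, which gave 93.8 against each other. Pairs of KO day 14 libraries gave 208 to 276, those of KO day 7 65.5 to 246 and those of WT day 7 21.7 to 117. The identifiers that name the deposited tables hold a running number and a lane, and in the order of the numbers the lanes go up to 8 and then start again at 1. The libraries were therefore placed in 2 lane sets, which may be separate sequencing runs. This is an inference, since no label states a run. All KO day 7 libraries fall in 1 lane set and all KO day 14 libraries in the other, so that day and lane set cannot be told apart there. WT libraries of both days fall in both.

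The bases before annotated start sites are shown for some of the receptor genes that rose with time in culture. Il1rl1 and Il18rap lie in a single stretch of chromosome 1, and Il12rb2 lies on chromosome 6. The choice is not complete, since windows of Il1r2 and Il18r1, in the same stretch of chromosome 1, are not printed. Promoter windows of 300 bases (250 before and 50 after a start) were found for 8 of the 9 genes, 12 windows in all, in the RefSeq table of build GRCm38.p6. Given here are the 250 bases before the start in 4 windows, those of Il1rl1, Il18rap and Il12rb2, each 5′ to 3′ on the strand of its gene. Capitals mark matches to motifs of Th cell transcription factors.
Il1rl1 at chr1:40429320-40429569 (+): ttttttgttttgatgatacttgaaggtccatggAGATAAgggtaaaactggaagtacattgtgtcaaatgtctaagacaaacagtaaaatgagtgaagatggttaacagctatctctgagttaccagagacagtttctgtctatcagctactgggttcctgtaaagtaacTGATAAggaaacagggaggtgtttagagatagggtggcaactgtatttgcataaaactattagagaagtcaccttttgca
Il1rl1 at chr1:40439379-40439628 (+): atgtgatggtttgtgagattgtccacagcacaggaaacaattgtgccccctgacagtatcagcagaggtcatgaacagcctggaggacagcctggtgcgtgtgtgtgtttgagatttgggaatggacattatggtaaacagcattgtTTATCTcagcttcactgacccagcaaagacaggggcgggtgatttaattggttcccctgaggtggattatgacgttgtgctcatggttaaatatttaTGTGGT
Il18rap at chr1:40515112-40515361 (+): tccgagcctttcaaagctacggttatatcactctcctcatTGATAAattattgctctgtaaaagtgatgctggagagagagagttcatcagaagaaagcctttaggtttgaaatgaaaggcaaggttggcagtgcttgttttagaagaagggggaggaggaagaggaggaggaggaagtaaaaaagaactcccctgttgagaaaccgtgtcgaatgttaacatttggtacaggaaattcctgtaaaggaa
Il12rb2 at chr6:67376189-67376438 (-): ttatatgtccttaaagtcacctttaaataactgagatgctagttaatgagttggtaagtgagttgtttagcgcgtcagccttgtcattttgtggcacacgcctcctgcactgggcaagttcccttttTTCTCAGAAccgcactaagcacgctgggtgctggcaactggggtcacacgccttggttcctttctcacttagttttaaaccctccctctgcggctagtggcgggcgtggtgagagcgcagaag

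The motifs searched, on both strands, were TTCNNNGAA for STAT factors and AGATAA for GATA factors, for which the form TGATAA was searched as well. The T-box letters were TCACACC and the NF-kB letters GGGNNTTCC. For AP-1 the search used TGANTCA and for Runx factors it used TGTGGT. Counted from the start site as 0, the distal Il1rl1 window held AGATAA at -217 and TGATAA at -80, and the proximal one held a reverse GATA match, TTATCT, at -103 and TGTGGT at -6. Il18rap held TGATAA at -210 and a reverse Runx match at 31, in the part after the start that is not printed. Il12rb2 held a STAT match, TTCTCAGAA, at -123 and an NF-kB match that begins at -1 and runs past the start. The windows of Il1r2 and Il18r1 with matches are not printed and reach into transcribed bases of other transcripts. The proximal Il1rl1 window, which is printed, also lies inside the annotated span of its gene. Il1r2 held a STAT match at -111 and a GATA match at -86. Il18r1 held STAT matches at -219 and -152 and, in another window, a Runx match at 21. Il17rb held an AP-1 match at -104 and Il1r1 an NF-kB match at -232. Of all 32851 windows of this length in the table, 18.6% held the GATA letters, 8.30% STAT, 16.8% Runx, 7.81% AP-1, 5.82% NF-kB and 3.98% T-box. A match is a description of letters and no evidence that a factor binds.

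Most of these receptor genes rose between day 7 and day 14 in KO cultures and fewer passed the test in WT cultures, while no difference between genotypes passed it at either day. In KO cultures 7 of the 8 tested members were called over time, all of them higher at day 14 (all but Il1rap), where 15.5% of all tested genes were called in either direction. In WT cultures 3 of 8 were called, all higher at day 14 (Il12rb1, Il18rap and Il1r2), where 20.5% of all genes were called. Knockout against WT called 0 of 8 at day 14, where 1.42% of all genes were called, and 0 of 8 at day 7, where 0.0949% were. The interaction of genotype and day called 0 of 8, with 0.0863% of all genes called, so no difference between the KO and the WT time course was shown for any member. A call is an adjusted p under 0.05 in edgeR's quasi-likelihood test over all tested genes. In that test 2515 genes had an unadjusted p under 0.05 for genotype at day 14, 2716 at day 7 and 924 in the interaction. Of the 8 tested members, Il12rb1 and Il1r2 were among these at day 14 and in the interaction, and none was at day 7. At day 14, 2 of 8 is near the share of all 11591 tested genes. DESeq2 called 2 members (Il12rb1 and Il1r2) at day 14, where it called 8.57% of all genes. It called 0 at day 7 and in the interaction, where it called 4.42% and 1.41% of all genes. These are RNA levels of whole cultures, in which fewer cells of a type and less RNA per cell cannot be told apart. Left out in turn, single libraries brought the count of members called in KO over time to between 3 and 7: it was 3 without KO day 14 library 3, KO day 7 library 3 or KO day 7 library 4, and 4 without KO day 14 library 2. With lane set as a term it was 2 (Il12rb1 and Il18rap). The size of that term comes from the WT libraries alone and is carried over to KO. It therefore cannot separate day from lane set within KO.

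**Figure D1:**
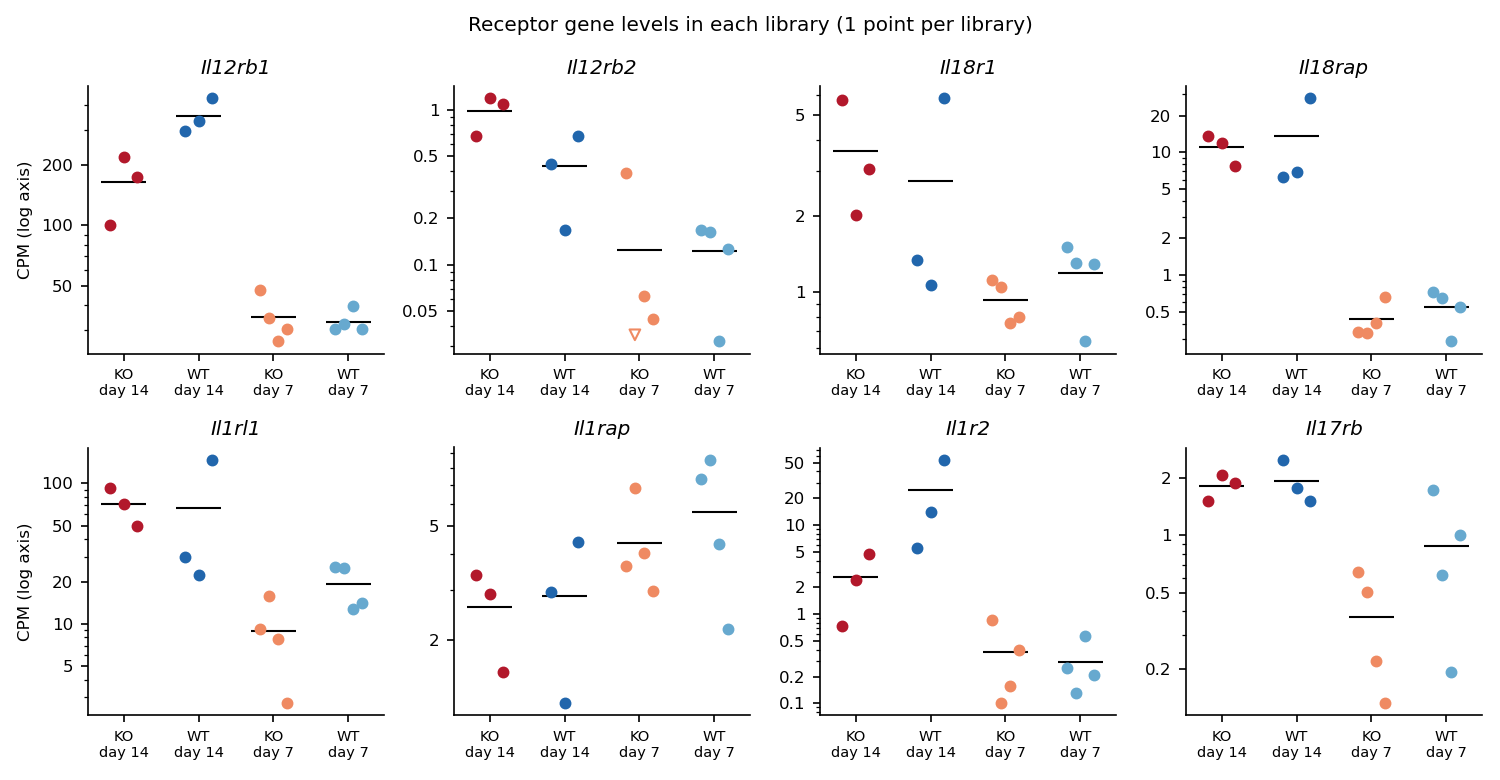
Level of each of the 8 tested receptor genes in CPM (log axis, its own range in each panel), 1 point per library in the order of replicate numbers, with the group mean as a line. The open triangle is a library with 0 reads, drawn at the level of 1 read on its total without TMM scaling. All day 14 libraries lie above all day 7 libraries for Il12rb1 and Il18rap.

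Il12rb1 (chr8:70808449-70821424, + strand, GRCm38) encodes IL-12Rβ1, which IL-12 and IL-23 receptors share, and was the most abundant of the 9 genes per length in the means of all 4 groups. It stood at 101, 219 and 174 CPM in KO day 14 libraries and at 296, 333 and 432 CPM in WT day 14 libraries. For Il12rb1, day 7 values were 47.7, 34.6, 26.3 and 30.5 CPM in KO libraries and 30.2, 32.0, 39.7 and 30.4 CPM in WT libraries. Every day 14 library was above every day 7 library, and all 3 KO libraries were below all 3 WT libraries at day 14. The day 14 over day 7 change was a log2 fold change of 2.24 ± 0.27 (SE, adjusted p = 0.00012, edgeR) in KO and 3.42 ± 0.28 (adjusted p = 4.03e-06) in WT. Both calls held in all 14 fits that left out 1 library. They also held with lane set as a term, at 2.27 in KO and 3.43 in WT, where the KO value uses a lane set effect estimated from WT. Within the lane set that holds WT day 14 library 2, that library stood at 333 CPM against 30.4 to 39.7 CPM at day 7, and within the other WT stood at 296 and 432 CPM at day 14 against 30.2 CPM at day 7.

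At day 14 the KO cultures held 165 ± 59.6 CPM of Il12rb1 and the WT cultures 354 ± 70.4 CPM (SD, n = 3 each), a log2 fold change of -1.10 ± 0.28 that missed the threshold (adjusted p = 0.0646, edgeR). It passed with DESeq2 (adjusted p = 0.00769) and limma-voom (0.0290). In edgeR it passed without WT day 14 library 3 (-0.93, adjusted p = 0.0391) or without KO day 14 library 2 (-1.36, adjusted p = 0.0324). With lane set as a term in edgeR it was -1.09 (adjusted p = 0.113). With only the compared libraries it was -1.22 (adjusted p = 0.364). The offset for GC content and coding length gave -0.78 (adjusted p = 0.0903). Within a single lane set, without WT day 14 library 2, it was -1.15 (adjusted p = 0.126). At day 7 the genotypes overlapped, with 34.8 ± 9.24 CPM in KO and 33.1 ± 4.48 CPM in WT (SD, n = 4 each). The difference between the 2 time courses was -1.17 ± 0.37 on the log2 scale (adjusted p = 0.314).

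Il12rb2 (chr6:67291318-67376188, - strand) encodes the signalling chain IL-12Rβ2 and was near the limit of detection. It had 23, 36 and 36 reads in KO day 14 libraries (0.680, 1.19 and 1.09 CPM), 12, 5 and 22 reads in WT day 14 libraries (0.446, 0.167 and 0.680 CPM), 9, 0, 2 and 1 reads in KO day 7 libraries and 6, 5, 1 and 3 reads in WT day 7 libraries. The KO day 14 libraries were all above the KO day 7 libraries, while the WT days overlapped, and KO and WT libraries overlapped at both days. The log2 fold change over time was 3.03 ± 0.81 in KO (adjusted p = 0.0202, edgeR) and 1.79 ± 0.82 in WT (adjusted p = 0.144). The KO call was lost without KO day 14 library 2 (adjusted p = 0.0683) or 3 (0.0668), without KO day 7 library 3 (0.0701) or 4 (0.0526), and with lane set as a term (1.83, adjusted p = 0.416). KO over WT at day 14 was 1.18 ± 0.78 (adjusted p = 0.387).

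Of the coding bases of Il12rb2, 631 lie in exons of Serbp1 on the other strand. No source used here states whether reads were counted by strand. Serbp1 stood at 521 CPM in KO day 14 libraries, 361 CPM in WT day 14 libraries, 488 CPM in KO day 7 libraries and 421 CPM in WT day 7 libraries in the mean, where Il12rb2 averaged 0.984 CPM in KO and 0.431 CPM in WT at day 14 and 0.124 CPM in KO and 0.122 CPM in WT at day 7. Its part in the Il12rb2 reads was not tested. Per length, the ratio of Il12rb1 to Il12rb2 was 176 to 218 in KO day 14 libraries and 753 to 2366 in WT day 14 libraries, which did not overlap, and 146 to 816 in the 3 KO day 7 libraries with Il12rb2 reads and 214 to 1474 in WT day 7 libraries. The day 14 ratios rest on 23, 36 and 36 Il12rb2 reads in KO and 12, 5 and 22 in WT libraries. Their separation was not tested.

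Il18rap (chr1:40515362-40551705, + strand) encodes the accessory chain that gives the IL-18 receptor high affinity and signalling. It stood at 13.7, 11.9 and 7.75 CPM in KO day 14 libraries and at 6.36, 6.91 and 27.8 CPM in WT day 14 libraries. For Il18rap, day 7 values were 0.344, 0.338, 0.407 and 0.664 CPM in KO libraries and 0.724, 0.651, 0.287 and 0.543 CPM in WT libraries. These day 7 values rest on 8, 10, 13 and 15 reads in KO and 26, 20, 9 and 13 reads in WT libraries. Every day 14 library was above every day 7 library, and the genotypes overlapped at both days. The change over time was a log2 fold change of 4.66 ± 0.55 in KO (adjusted p = 0.00012, edgeR), or 25.3-fold, and 4.62 ± 0.54 in WT (adjusted p = 5.74e-05), or 24.6-fold. Both calls held in all 14 fits without 1 library. They also held with lane set as a term (3.71 in KO and 4.15 in WT), where the KO value uses a lane set effect estimated from WT. In WT it was 6.91 CPM at day 14 against 0.287 to 0.651 CPM at day 7 within 1 lane set, and 6.36 and 27.8 CPM against 0.724 CPM within the other.

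KO over WT at day 14 was -0.30 ± 0.51 for Il18rap (adjusted p = 0.767), and its sign turned without WT day 14 library 3, the highest of the 14 (0.74, adjusted p = 0.170). At day 7 it was -0.34 ± 0.52 (adjusted p = 0.714).

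Il18r1 (chr1:40465552-40500854, + strand), the ligand-binding IL-18Rα chain, passed the test over time in KO and not in WT. It stood at 5.76, 2.01 and 3.08 CPM in KO day 14 libraries and at 1.34, 1.07 and 5.84 CPM in WT day 14 libraries. For Il18r1, day 7 values were 1.12, 1.05, 0.752 and 0.797 CPM in KO libraries and 1.5, 1.30, 0.639 and 1.30 CPM in WT libraries. The KO days did not overlap, whereas WT day 14 libraries 1 and 2 lay inside the WT day 7 range. The log2 fold change over time was 1.96 ± 0.56 in KO (adjusted p = 0.0279, edgeR) and 1.22 ± 0.55 in WT (adjusted p = 0.141). The KO call was lost in 6 of the 14 fits without 1 library, namely any of KO day 7 libraries 1 to 4 or KO day 14 library 1 or 3 (1.45 to 2.06, adjusted p = 0.0524 to 0.106), and with lane set as a term (0.88, adjusted p = 0.574). The WT value was 0.02 without WT day 14 library 3 (adjusted p = 0.978), and it passed with the offset for GC content and coding length (1.27, adjusted p = 0.0107).

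KO over WT at day 14 was 0.39 ± 0.58 for Il18r1 (adjusted p = 0.731), and 1.59 (adjusted p = 0.0341) without WT day 14 library 3, while without KO day 14 library 1 it turned to -0.12 (adjusted p = 0.934). At day 7 it was -0.35 ± 0.53 (adjusted p = 0.712). The ratio of Il18rap to Il18r1 per length was 2.10, 5.25 and 2.23 in KO day 14 libraries, 4.20, 5.72 and 4.20 in WT day 14 libraries, 0.272 to 0.737 in KO day 7 libraries and 0.371 to 0.442 in WT day 7 libraries. The accessory chain was above the binding chain in all 6 day 14 libraries and below it in all 8 day 7 libraries.

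**Figure D2:**
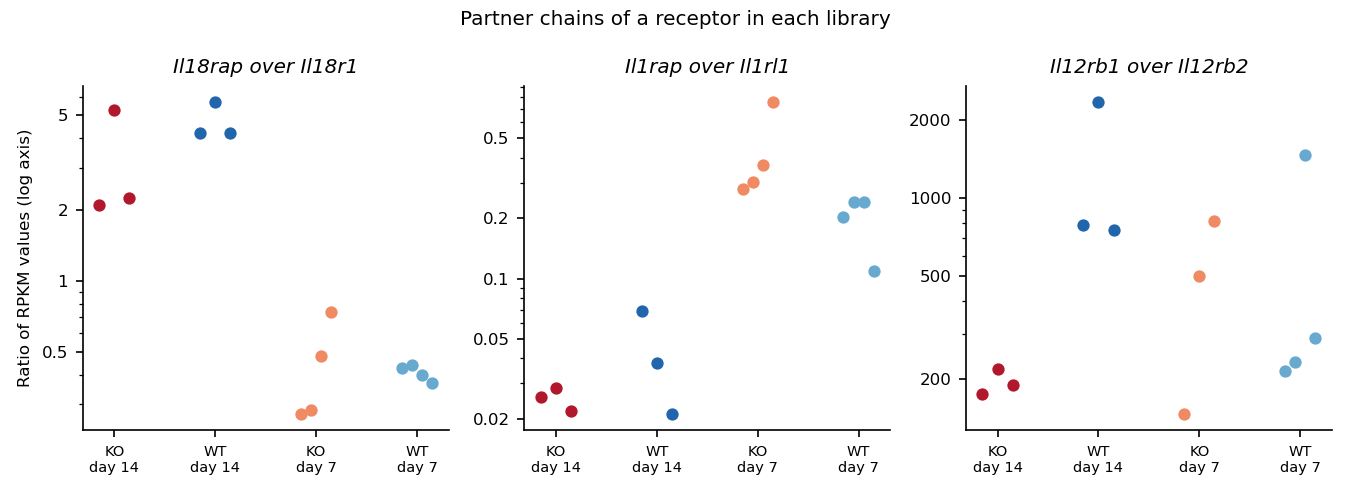
Ratio of deposited RPKM values of partner chains (log axis), 1 point per library: Il18rap over Il18r1, Il1rap over Il1rl1 and Il12rb1 over Il12rb2, where the KO day 7 library with 0 reads of Il12rb2 has no point. Il18rap over Il18r1 was 2.10 to 5.25 in KO and 4.20 to 5.72 in WT day 14 libraries, above all day 7 libraries, and Il1rap over Il1rl1 was below 0.07 in all day 14 libraries, under all day 7 libraries.

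Il1rl1 (chr1:40429570-40465415, + strand) encodes ST2, through which IL-33 acts on Th2 cells, mast cells and regulatory T cells, and came next after Il12rb1 per length in the means of all 4 groups. It stood at 92.9, 71.3 and 49.6 CPM in KO day 14 libraries and at 29.9, 22.4 and 147 CPM in WT day 14 libraries. For Il1rl1, day 7 values were 9.16, 15.8, 7.77 and 2.74 CPM in KO libraries and 25.4, 25.2, 12.8 and 14.0 CPM in WT libraries. KO day 14 libraries were all above KO day 7 libraries. Among WT day 14 libraries, library 3 was the highest of all 14, library 1 was just above the WT day 7 range and library 2 was inside it. The log2 fold change over time was 3.00 ± 0.63 in KO (adjusted p = 0.00515, edgeR), or 8.02-fold, and 1.78 ± 0.61 in WT (adjusted p = 0.0539). Counts are per gene, so transcripts from the distal and the proximal start of Il1rl1 cannot be told apart.

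The KO call for Il1rl1 held in all 14 fits without 1 library and was lost with lane set as a term (1.77, adjusted p = 0.282). The WT value fell to 0.43 without WT day 14 library 3 (adjusted p = 0.519), and passed without WT day 14 library 1 (2.13, adjusted p = 0.0390) or 2 (2.19, adjusted p = 0.0185), without KO day 7 library 4 (1.77, adjusted p = 0.0439), with DESeq2 (1.79, adjusted p = 0.0166) and with the offset for GC content and coding length (1.77, adjusted p = 0.00256). The difference between the 2 time courses was 1.22 ± 0.87 (adjusted p = 0.857). KO over WT was 0.10 ± 0.65 at day 14 (adjusted p = 0.951), and without WT day 14 library 3 it was 1.45 (adjusted p = 0.0764), while without WT day 14 library 1 or 2 or KO day 14 library 1 its sign turned (-0.25, -0.31 and -0.14, adjusted p = 0.814 to 0.937). At day 7 it was -1.12 ± 0.58 (adjusted p = 0.249), with 8.87 ± 5.39 CPM in KO and 19.3 ± 6.89 CPM in WT (SD, n = 4 each), and -0.96 (adjusted p = 0.464) without WT day 7 library 1, within a single lane set.

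Markers of mast cells, which express ST2, summed to 23.4 to 132 CPM in KO day 14 libraries, 3.91 to 8.03 CPM in WT day 14 libraries, 53.4 to 86.8 CPM in KO day 7 libraries and 35.0 to 70.3 CPM in WT day 7 libraries. The highest sum was that of KO day 14 library 1, and 120 CPM of it was Cpa3. That library also had the highest Il1rl1 of its group. In each of the other groups the library with the highest sum was not the one with the highest Il1rl1. Of the 10 markers, Fcer1a, Ms4a2, Mcpt4, Cma1, Tpsb2, Tpsab1 and Gata2 were at 0 in all KO day 14 libraries. Between days the sums went the other way in WT, where every day 14 library held less of the markers than every day 7 library. The part of mast cells in the Il1rl1 level was not tested. Of 5 tested markers, Kit and Cpa3 were higher in KO than in WT at day 14 (adjusted p = 0.0115 and 0.0270, edgeR). Of all genes 1.42% were called there in either direction, and the median log2 fold change of the 5 markers was 0. Hdc overlapped, with 63, 27 and 83 reads in KO and 61, 82 and 56 reads in WT day 14 libraries. Markers of regulatory T cells summed to 2279 to 4058 CPM in KO and 1967 to 2923 CPM in WT day 14 libraries, against 1025 to 2323 CPM in KO and 736 to 1144 CPM in WT day 7 libraries. Of these markers, the defining one, Foxp3, was 0.513 to 1.81 CPM in KO day 14 libraries, 0.495 to 1.90 CPM in WT day 14 libraries, 0.841 to 1.55 CPM in KO day 7 libraries and 0.696 to 1.30 CPM in WT day 7 libraries.

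Il1rap (chr16:26581704-26730117, + strand), the accessory chain that ST2 and IL-1R1 share, was the only tested member with a lower mean at day 14, and its change passed the test in neither genotype. It stood at 3.37, 2.90 and 1.54 CPM in KO day 14 libraries and at 2.94, 1.20 and 4.39 CPM in WT day 14 libraries. For Il1rap, day 7 values were 3.61, 6.79, 4.04 and 2.97 CPM in KO libraries and 7.32, 8.56, 4.34 and 2.17 CPM in WT libraries. All 4 groups overlapped. The log2 fold change over time was -0.74 ± 0.52 in KO (adjusted p = 0.408, edgeR) and -0.98 ± 0.52 in WT (adjusted p = 0.212), and KO over WT was -0.13 ± 0.55 at day 14 and -0.36 ± 0.47 at day 7. Of its coding bases, 353 lie in exons of the antisense gene Gm20319, which is not in the count tables used here. The ratio of Il1rap to Il1rl1 per length was 0.0218 to 0.0286 in KO day 14 libraries and 0.0210 to 0.0692 in WT day 14 libraries, against 0.278 to 0.761 in KO day 7 libraries and 0.109 to 0.240 in WT day 7 libraries. Every day 14 library lay below every day 7 library.

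Il1r1 (chr1:40225080-40317257, + strand), the signalling receptor of IL-1, had 0 reads in 13 libraries and 4 reads in WT day 14 library 2 (0.134 CPM). A count of 0 over a group allows up to 0.0316 CPM in KO day 14 libraries, 0.0281 CPM in KO day 7 libraries and 0.0243 CPM in WT day 7 libraries. This takes 3 counts as the limit, on totals without TMM scaling. These limits, and the counts beside them, cover counting error only.

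Il1r2 (chr1:40074079-40125231, + strand), the IL-1 decoy receptor, showed the largest change over time among the tested members in WT. It stood at 0.739, 2.41 and 4.77 CPM in KO day 14 libraries and at 5.58, 13.9 and 54.2 CPM in WT day 14 libraries. For Il1r2, day 7 values were 0.861, 0.101, 0.157 and 0.398 CPM in KO libraries and 0.251, 0.130, 0.575 and 0.209 CPM in WT libraries. These day 7 values rest on 20, 3, 5 and 9 reads in KO and 9, 4, 18 and 5 reads in WT libraries, so that the size of the fold changes is imprecise. All 3 WT day 14 libraries were above all 3 KO day 14 libraries and above all day 7 libraries, and KO day 14 library 1 lay inside the KO day 7 range. The log2 fold change over time was 2.83 ± 0.86 in KO (adjusted p = 0.0376, edgeR), or 7.13-fold, and 6.37 ± 0.93 in WT (adjusted p = 0.00033), or 82.6-fold. In WT the value was 5.03 without WT day 14 library 3, and the call held in all 14 fits without 1 library and with lane set as a term (6.07).

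The KO call for Il1r2 was lost in 5 of the 14 fits, those without KO day 7 library 2, 3 or 4 or KO day 14 library 2 or 3 (2.08 to 2.89, adjusted p = 0.0764 to 0.202), as well as with limma-voom (adjusted p = 0.113) and with lane set as a term (2.30, adjusted p = 0.330). KO over WT at day 14 was -3.22 ± 0.89, a 9.30-fold lower level that missed the threshold (adjusted p = 0.0752, edgeR). DESeq2 called it (adjusted p = 0.00507), as did edgeR with an offset for GC content and coding length (-3.25, adjusted p = 0.0273). With limma-voom it was -3.01 (adjusted p = 0.0554). In edgeR with lane set as a term it was -3.34 (adjusted p = 0.111). With only the compared libraries it was -3.39 (adjusted p = 0.406). It was -1.88 (adjusted p = 0.0905) without WT day 14 library 3 and -3.50 (adjusted p = 0.113) without WT day 14 library 2, within a single lane set. At day 7 it was 0.32 ± 0.89 (adjusted p = 0.852), and the difference between the time courses was -3.53 ± 1.24 (adjusted p = 0.407). Of the markers of neutrophils, which carry much IL-1R2, S100a8, Csf3r and Retnlg were at 0 in all KO day 14 libraries, S100a8, S100a9 and Retnlg in all WT day 14 libraries, and the 5 markers summed to 0.177 to 0.875 CPM in KO and 0.267 to 0.835 CPM in WT at day 14, against 0 to 0.0443 CPM in KO and 0 CPM in WT at day 7. Nearly all of the day 14 sum was Ly6g, and its part in the Il1r2 level was not tested.

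**Figure D3:**
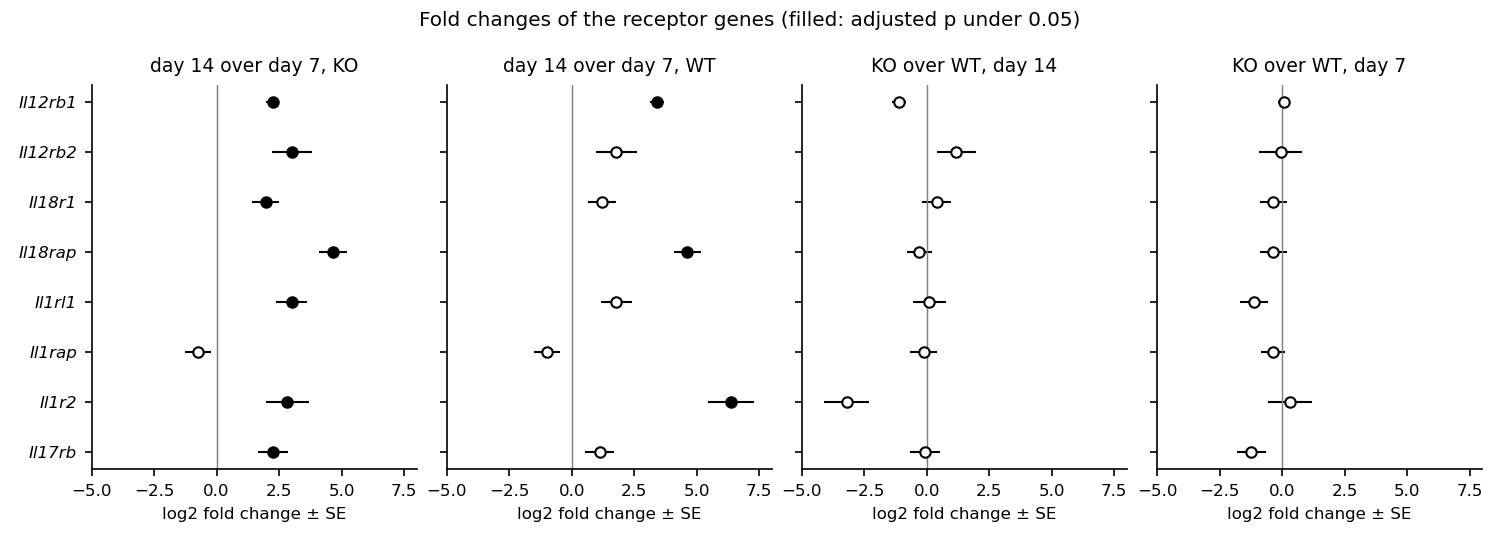
Log2 fold change ± SE of the 8 tested receptor genes (rows) in each comparison (panels), from edgeR over all 14 libraries, filled where the adjusted p is under 0.05. In KO 7 of 8 points are filled for day 14 over day 7 and in WT 3 of 8, while no point is filled for KO over WT at day 14 or day 7.

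Il17rb (chr14:29996135-30008896, - strand), the IL-25-binding chain, stood at 1.51, 2.08 and 1.87 CPM in KO day 14 libraries and at 2.49, 1.77 and 1.51 CPM in WT day 14 libraries. For Il17rb, day 7 values were 0.645, 0.507, 0.219 and 0.133 CPM in KO libraries and 1.73, 0.618, 0.192 and 1.00 CPM in WT libraries. The KO days did not overlap and the WT days did, through WT day 7 library 1. The log2 fold change over time was 2.26 ± 0.61 in KO (adjusted p = 0.0211, edgeR) and 1.11 ± 0.58 in WT (adjusted p = 0.204). The KO call was lost without KO day 14 library 2 (adjusted p = 0.0673) or 3 (0.0632), without KO day 7 library 3 (0.0709) or 4 (0.0528), and with lane set as a term (1.38, adjusted p = 0.346). KO over WT was -0.08 ± 0.61 at day 14 (adjusted p = 0.961) and -1.23 ± 0.59 at day 7 (adjusted p = 0.221), or -0.66 (adjusted p = 0.591) without WT day 7 library 1, within a single lane set. Of its coding bases, 141 lie in exons of Actr8 on the other strand, which averaged 130 CPM in KO and 119 CPM in WT day 14 libraries and 157 CPM in KO and 144 CPM in WT day 7 libraries.

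Il17ra, the partner of IL-17RB that also serves IL-17A, was far more abundant. It averaged 62.2 ± 22.5 RPKM in KO day 14 libraries, 112 ± 50.8 RPKM in WT day 14 libraries, 90.2 ± 33.4 RPKM in KO day 7 libraries and 169 ± 18.1 RPKM in WT day 7 libraries (SD, n = 3, 3, 4 and 4), against group means of 0.101 to 0.558 RPKM for Il17rb. Its log2 fold change passed in no comparison, with -0.90 ± 0.38 for KO over WT at day 14 (adjusted p = 0.193) and -0.89 ± 0.33 at day 7 (adjusted p = 0.155, edgeR).

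Set against each other per length, in deposited RPKM, the 9 genes fell into a wide range. In KO day 14 libraries Il12rb1 averaged 32.7 RPKM, Il1rl1 18.5, Il18rap 2.71, Il18r1 0.995, Il1r2 0.917, Il17rb 0.535, Il1rap 0.477 and Il12rb2 0.165 RPKM. The libraries of neighbours in that order overlapped except between Il1rl1 and Il18rap, between Il18rap and Il18r1, and at the low end between Il1rap, Il12rb2 and Il1r1. In WT day 14 libraries the order was Il12rb1 (70.2 RPKM), Il1rl1 (17.3), Il1r2 (8.97), Il18rap (3.33), Il18r1 (0.758), Il17rb (0.558), Il1rap (0.512) and Il12rb2 (0.0727 RPKM), where only Il12rb1 and Il1rl1, and Il1rap and Il12rb2, did not overlap as neighbours. At day 7 Il12rb1 stood at 6.29 RPKM in KO and 6.08 RPKM in WT, Il1rl1 at 2.09 RPKM in KO and 4.58 RPKM in WT, and Il1rap came after them in both, with 0.718 RPKM in KO and 0.937 RPKM in WT. The other tested members were at or under 0.298 RPKM in both genotypes at day 7.

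Of the 9 genes, 5 lie with Il1rl2 in a cluster of 6 related genes that spans 478 kb of chromosome 1, in the order Il1r2, Il1r1, Il1rl2, Il1rl1, Il18r1 and Il18rap. Il1rl1 and Il18r1 are 136 bases apart. All 4 tested members in the cluster were called higher at day 14 in KO, where 15.5% of all genes were called in either direction. In WT 2 of them, Il1r2 and Il18rap, were called, where 20.5% of all genes were. With lane set as a term, Il18rap alone of the 4 stayed called in KO. Il1rl2, which encodes the IL-36 receptor and sits in the middle, went the other way: it stood at 0.543 to 1.12 CPM in KO and 0.668 to 1.11 CPM in WT day 14 libraries, against 3.23 to 3.78 CPM in KO and 2.28 to 3.18 CPM in WT day 7 libraries. Its log2 fold change was -2.19 ± 0.34 in KO (adjusted p = 0.000625, edgeR) and -1.67 ± 0.33 in WT (adjusted p = 0.00259). Of the flanking genes tested, Mfsd9 was higher at day 14 in KO (1.39 ± 0.40, adjusted p = 0.0286) and WT (1.55 ± 0.39, adjusted p = 0.0115), and Map4k4 was lower in WT (-1.0 ± 0.29, adjusted p = 0.0256).

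**Figure D4:**
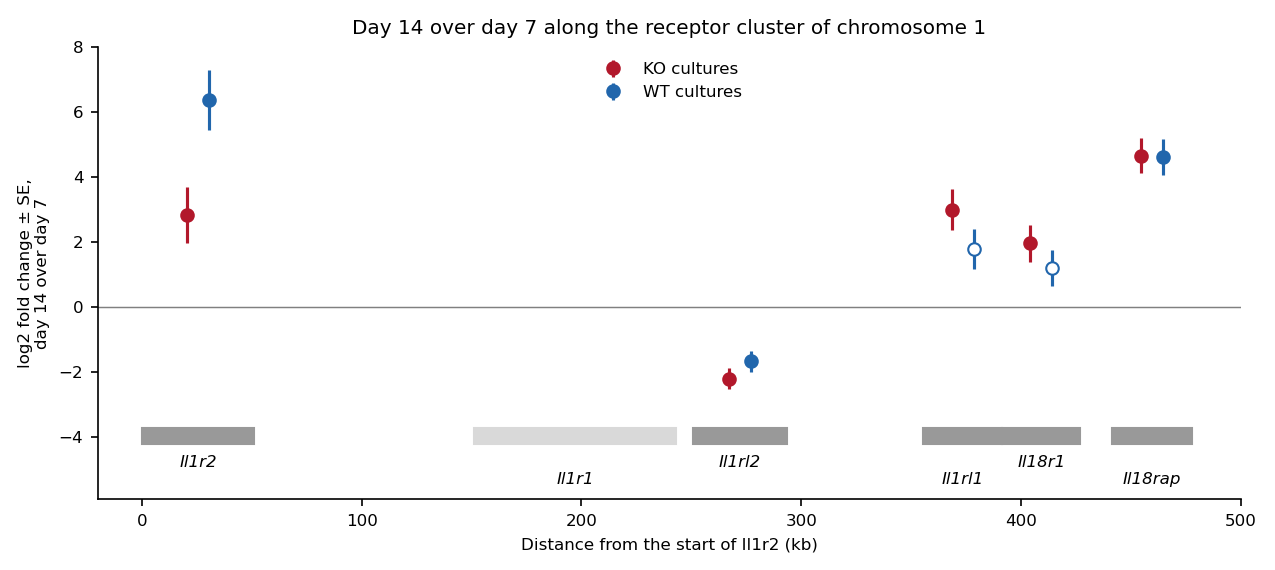
Log2 fold change ± SE, day 14 over day 7, of the genes in the chromosome 1 receptor cluster, at their distance in kb from the start of Il1r2, in KO and WT cultures (filled where the adjusted p is under 0.05). Grey bars are the gene bodies, the paler one is Il1r1, which was not tested. Il1r2, Il1rl1, Il18r1 and Il18rap lie above 0 and Il1rl2 below 0 in both genotypes.

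Reads of most of the ligands were not detected. Il12a, Il12b, Il33, Il25 and the IL-1 receptor antagonist Il1rn had 0 reads in all 14 libraries, as did Il23r, the receptor chain that IL-12Rβ1 pairs with for IL-23. Il18 had 0 to 3 reads a library and Il1b 0 to 6. Of 13 listed ligands and soluble antagonists 2 could be tested. Ebi3, a chain of IL-27 and IL-35, was higher at day 14 in WT (log2 fold change 2.58 ± 0.36, adjusted p = 0.000245, edgeR), and Il18bp, the soluble inhibitor of IL-18, passed in no comparison. Il18bp stood at 1.68, 2.90 and 4.83 CPM in KO day 14 libraries and at 0, 0.334 and 1.70 CPM in WT day 14 libraries, where KO over WT was 2.18 ± 1.00 (adjusted p = 0.222).

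Of the 13 tested genes of IL-12 signalling, 4 were higher at day 14 in KO and 6 in WT, and none was lower, beside 15.5% of all genes called in either direction in KO and 20.5% in WT. The called ones include the feedback inhibitors of cytokine receptors Socs3 (3.14 ± 0.36 in KO, 3.72 ± 0.36 in WT) and Socs1 (3.02 ± 0.38 in KO, 3.40 ± 0.39 in WT), the transcription factor Hlx (2.67 ± 0.54 in KO, 4.17 ± 0.51 in WT) and Gadd45b (1.20 ± 0.32 in KO, 2.34 ± 0.32 in WT), with adjusted p between 1.64e-05 and 0.0182 in edgeR. Gadd45g and Stat3 were called in WT and not in KO, at 2.06 ± 0.53 and 0.60 ± 0.18, and the difference between genotypes was not called for any gene of the list. Stat4, the transducer of IL-12, did not pass (-0.73 ± 0.57 in KO, adjusted p = 0.471, and -1.08 ± 0.58 in WT, adjusted p = 0.217), nor did Tbx21, which encodes the Th1 regulator T-bet and was at most 1.08 CPM in all libraries. Ifng had 1 read in KO day 14 library 2 and in WT day 7 library 4, and 0 elsewhere. The median log2 fold change of the list was 0.35 in KO and 0.39 in WT over time, where that of all genes was 0.02 in KO and -0.0020 in WT. For KO over WT the list had no call and medians of -0.86 at day 14 and -0.42 at day 7, beside 0.0085 and -0.01 over all genes.

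Of 25 tested genes downstream of the IL-1 receptor family, 2 were higher and 3 lower at day 14 in KO, and 1 higher and 2 lower in WT. These counts, 5 and 3 of 25, stand beside 15.5% of all genes called in KO and 20.5% in WT, and a share near or under that of all genes is no result about the list. Irak3, an inhibitor of this pathway, was lower in KO (-2.24 ± 0.33, adjusted p = 0.000467, edgeR) and WT (-1.82 ± 0.32, adjusted p = 0.00122), as was Ikbkb, a kinase that activates NF-kB (-1.02 ± 0.27 in KO, adjusted p = 0.0187, and -1.58 ± 0.28 in WT, adjusted p = 0.00107). Mapkapk2 was higher in KO (1.10 ± 0.28, adjusted p = 0.0163) and WT (1.05 ± 0.28, adjusted p = 0.0158). Nfkb1 was higher (1.52 ± 0.31, adjusted p = 0.00386) and Nfkbia lower (-1.01 ± 0.30, adjusted p = 0.0359) in KO. Myd88, the adaptor of the family, had log2 fold changes of 0.02 ± 0.15 in KO and 0.23 ± 0.15 in WT over time and passed in no comparison. The median over the list was 0.02 in both genotypes. Of 8 tested genes of IL-25 signalling, Traf5 alone was called and was lower at day 14 in KO (-0.92 ± 0.25, adjusted p = 0.0221) and WT (-1.40 ± 0.26, adjusted p = 0.00141), and 1 of 8 is likewise no more than the share of all genes. No gene of either list was called between genotypes at either day.

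Of 20 listed effector genes known from ST2-positive Th2 cells, 15 held enough reads to be tested. Il13 did not, with at most 5 reads in any library. Of the 15, 8 were higher at day 14 in KO, where 15.5% of all genes were called in either direction. In WT 11 were higher, where 20.5% of all genes were called, and none was lower in either genotype. Il10 rose by 4.40 ± 0.71 on the log2 scale in KO (adjusted p = 0.000901, edgeR) and by 6.48 ± 0.75 in WT (adjusted p = 5.63e-05), and Il4, the signature Th2 cytokine, by 1.77 ± 0.50 in KO (adjusted p = 0.0254) and 2.56 ± 0.51 in WT (adjusted p = 0.00268). Il5, whose product IL-33 and IL-25 raise, had 13, 76 and 107 reads in KO day 14 libraries, 24, 147 and 303 reads in WT day 14 libraries, 2, 0, 1 and 3 reads in KO day 7 libraries and 0 reads in all WT day 7 libraries. Gata3 did not pass (-0.07 ± 0.16 in KO and -0.29 ± 0.16 in WT). At day 14, 2 of the 15 genes were lower in KO than in WT, where 1.42% of all genes were called in either direction: Nfil3, at -1.68 ± 0.26 (adjusted p = 0.00823), and the IL-4 receptor gene Il4ra, at -1.46 ± 0.32 (adjusted p = 0.0369).

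Markers of innate lymphocytes, which carry IL-12 and IL-18 receptors, summed to 10.9 to 40.4 CPM in KO and 22.6 to 42.2 CPM in WT day 14 libraries, against 1.73 to 3.72 CPM in KO and 3.68 to 6.87 CPM in WT day 7 libraries. At day 14 nearly all of it was Eomes, a factor that activated T cells can express too, whereas at day 7 Eomes made up 1.02 to 2.57 CPM in KO and 2.97 to 6.48 CPM in WT libraries. Eomes rose by 4.05 on the log2 scale in KO (adjusted p = 0.000112, edgeR) and 2.74 in WT (adjusted p = 0.000584). Zbtb16, the factor of NKT cells, was lower at day 14, with 2, 0 and 0 reads in KO and 2, 4 and 6 reads in WT libraries, against 14 to 49 reads in KO and 9 to 28 reads in WT day 7 libraries (adjusted p = 0.000766 in KO and 0.0455 in WT), and Ncr1 and Klra8 were at 0 in all groups. The part of these in the rise of Il12rb1, Il18r1 and Il18rap was not tested.

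For each of the 7 members called over time, the 2 genes with the most similar course were found among about 8220 genes averaging at least 5 CPM, by the root-mean-square difference of log2 CPM centred on each gene's mean over the 14 libraries. For Il12rb1 these were Kcnk5 (0.25) and Plcd1 (0.36), where Il12rb1 itself varied by 1.47 around its mean on the same scale. Plcd1 averaged 40.6 CPM in KO and 116 CPM in WT at day 14, against 7.38 CPM in KO and 6.71 CPM in WT at day 7. For Il18rap (2.22 around its own mean) they were Htr1b (0.42) and Plxdc2 (0.47), for Il18r1 (0.93) Tespa1 (0.38) and Wls (0.40), and for Il1rl1 (1.47) Fut8 (0.66) and Pros1 (0.71). For Il1r2, which itself varied by 2.46, they were Ttc39c (0.88) and Azin2 (0.96), with Azin2 at 11.2 CPM in KO and 61.1 CPM in WT at day 14 and 0.973 CPM in KO and 1.53 CPM in WT at day 7. For Il12rb2 (1.31) they were Gata1 (0.65) and Coro2a (0.68), and for Il17rb (1.19) Ifi27 (0.65) and Clstn1 (0.66).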

How the data were processed

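RNA of 14 libraries was sequenced in paired ends, per the labels. The submitters' processing notes name the aligner GSNAP (version 2013-11-01) and the build GRCm38. How reads were assigned to genes, and whether by strand, is not given in these sources. The authors deposited, for every library, gene-level read counts (whole numbers) beside RPKM, per the file headers. All tests and CPM levels here start from the deposited counts. The deposited RPKM values served only to set genes beside each other per length. Of 22598 identifiers, 22457 had a symbol in GENCODE mouse release 21, which gave the coordinates.

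Groups came from the sample titles. Since no label ties each library to its own mouse, p-values measure the spread between these libraries, which may be technical. The main test was edgeR 4.0.16 (R 4.3.3, limma 3.58.1): filterByExpr, TMM, a robust quasi-likelihood fit of 4 group means to 14 libraries, and Benjamini-Hochberg adjustment over all tested genes. The common biological coefficient of variation was 0.354. Each SE was computed as the absolute log2 fold change divided by the square root of F. The pipeline was tested on simulated counts. These held no lane set effect and no library that stood apart from its group, so they do not bear on either. Alternatives were other scaling and filters, fits to the compared groups alone, limma-voom, DESeq2 1.42.0, the replicate number as a block, lane set (inferred from the identifiers) as a term and leaving out each library. An offset for GC content and coding length (natural splines, 5 degrees of freedom, 11550 genes) was added after seeing the data.

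The receptor genes and all gene lists were chosen with earlier results of these data known. Named are all 9 receptor genes, the 2 nearest genes of each called one, called genes of the lists (up to 6 per list and comparison, by adjusted p) and a fixed set of ligands, partners and regulators. Not every gene so named is described. Eomes, Zbtb16, Cpa3 and other single markers were named after their values were seen.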

Additional observations from a re-analysis of the deposited data

Results flagged for a closer look

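In 1 of 16 groups of 4 libraries examined (8 receptor genes, 2 day 7 groups), a library lay far from the other 3. Il12rb2 stood at 0.387 CPM (9 reads) in KO day 7 library 1, against 0, 0.0627 and 0.0443 CPM in the other KO day 7 libraries, and its gap to the nearest was 0.838 of the range of the group, where Dixon's 95% critical value for 4 samples is 0.829. Chance flags about 1 in 20 such groups. Without this library the log2 fold change of Il12rb2 over time in KO was 4.63 (adjusted p = 0.00314, edgeR), beside 3.03 with it.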

How the results depend on the processing

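Over all receptor genes, comparisons and alternatives, 869 values kept their direction and side of the threshold, 27 lost a call, 13 gained one and 35 turned sign. RLE scaling, no scaling and dropping the filter on low counts changed no call of a receptor gene.

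For KO over WT at day 14 the count of receptor genes called was 2 with DESeq2 (Il12rb1 and Il1r2) and 1 each with limma-voom (Il12rb1) and with the offset for GC content and coding length (Il1r2), an alternative added after seeing the data. Over all genes, where 165 were called, it was 993 with DESeq2, 541 with the offset, 404 with limma-voom, 248 without scaling, 79 with lane set as a term and 0 with only the compared libraries (1157 at an unadjusted p under 0.05). At day 7 DESeq2 called 512 genes, beside 11. In the interaction DESeq2 called 163 genes, the offset 78 and the lane set term 1, beside 10. For KO over time the lane set term left 2 receptor genes and 370 genes, beside 7 and 1792, and the offset gave 3357 genes. For WT over time the offset gave 5 receptor genes, with Il18r1 and Il1rl1 added, and 3842 genes, beside 3 and 2375. That offset moved the median of all genes to -0.15 in KO and -0.13 in WT over time. The cause of these moves was not tested.

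Signs turned in values that passed no test. At day 7 Il12rb2 was 0.32 with the lane set term and 0.40 with the offset. At day 14 Il1rl1 was -0.10 with the lane set term and -0.0068 with only the compared libraries. In the interaction Il18rap was -0.44 with the lane set term and -0.16 with the offset, and Il1rap was -0.23 with the lane set term and -0.048 with the offset.

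With single libraries left out, KO over WT at day 7 ran from -0.12 to 0.18 for Il12rb1, -1.67 to 0.38 for Il12rb2 and -0.47 to 0.87 for Il1r2. At day 14 it ran from -0.23 to 0.15 for Il17rb, -0.12 to 1.59 for Il18r1, -0.64 to 0.74 for Il18rap, -0.50 to 0.33 for Il1rap and -0.31 to 1.45 for Il1rl1. The interaction ran from -0.30 to 1.09 for Il18rap and -0.13 to 0.70 for Il1rap. Receptor genes called ran from 0 to 2 at day 14, 3 to 7 in KO over time and 3 to 4 in WT over time. Over all genes the counts ran from 8 to 14 at day 7, 42 to 2640 at day 14, 1 to 380 in the interaction, 1061 to 2420 in KO over time and 1723 to 3539 in WT over time. The 2640 came without WT day 14 library 3.

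Libraries share replicate numbers across groups. Deviations of same-numbered libraries correlated at -0.116, 0.417, -0.093 and 0.271 between genotypes at day 7, and at 0.194, 0.35 and 0.049 at day 14. Those of libraries with different numbers ran from -0.405 to 0.445 at day 7 and from -0.4 to 0.226 at day 14. So few values cannot show whether the numbers pair the samples. With the replicate number as a block, 5 receptor genes were called in KO over time (without Il18r1 at 1.85, adjusted p = 0.0734, and Il1r2 at 2.46, adjusted p = 0.102, edgeR), 3 in WT over time and 0 between genotypes, and Il17rb at day 14 was 0.030. Il12rb2, Il17rb and Il1r1, and at day 7 also Il1r2, Il18rap and Il18r1, rest on few reads, which limits what these depths can show.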
